A study of Ginkgo biloba with 7 samples.

Results

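Among the microRNAs of the Ginkgo biloba ovule, 28 names carry the numbers miR159 or miR319, of 279 names counted in the small RNA libraries. Their target genes were taken from the list deposited for a mix of ovules of both stages. The series names degradome sequencing, which reads the ends of cut messenger RNAs, but the labels do not say that the list was made from it. A gene was included when it was listed for a miR159 or miR319 name and for no miRNA of another number, which gave 45 genes of 902 listed targets and of 43456 genes in the expression table. Of these, 27 genes were listed for miR159 names, 14 for miR319 names and 4 for names of both families. Another 7 genes listed for these families were also listed for other miRNAs and were kept apart.

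Ovules came from several trees of the Fozhi cultivar of this dioecious gymnosperm, and the labels do not say which trees entered which library. PN ovules had been pollinated 1 day before sampling, and PD ovules were mature and secreting the pollination drop, the fluid that catches airborne pollen. Small RNA was counted in 1 PN and 1 PD library, with 1129198 reads in PN and 774387 reads in PD. The count columns are headed Ov1 and Ov2. They were matched to PD and PN only by the tags OV1 and OV2 in the sample titles, and every miRNA direction given here rests on that match. Gene expression was given as FPKM (sequenced fragments corrected for gene length and for the size of the library). The labels list 2 RNA-seq libraries per stage. Of the 4 columns of the table, however, 2 are headed PD2 and none PN2, so these 2 could not be matched to a library and were not used. The values are those of the first library of each stage, so none has a replicate error here, and every difference given is one between 2 libraries. The labels do not say whether the small RNA and the RNA-seq libraries came from the same ovules, and effects of pollination and of the passing of time cannot be told apart. The tissue could not be checked against marker genes, since the gene IDs are not paired with names in the files.

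MicroRNAs are short RNAs that guide an Argonaute protein to complementary messenger RNAs, which in plants are often cut at the paired site. miR159 and miR319 are related in sequence and occur across land plants. In flowering plants miR159 acts mainly on GAMYB-like MYB transcription factors, which take part in gibberellin responses, in anther development and in the aleurone of the seed. miR319 acts mainly on CIN-type TCP transcription factors, which limit cell proliferation in leaves and other lateral organs and promote jasmonate synthesis. The names counted here are those of miRNAs known from other plants, with a species prefix such as pta for Pinus taeda, pde for Pinus densata, ath for Arabidopsis thaliana, osa for rice, mtr for Medicago truncatula, ptc for poplar, gma for soybean and ppt for a moss. None of the 45 target genes is annotated in the files, so which of them encode MYB or TCP proteins was not determined.

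The 2 families held similar parts of the counted reads. miR319 had 11309 reads in PN and 8343 reads in PD over 10 names, and miR159 had 10336 reads in PN and 7066 reads in PD over 18 names. As a share of all counted reads, miR319 stood at 1.002% in PN (95% interval 0.983 to 1.02) and 1.08% in PD (1.05 to 1.10). The share of miR159 was 0.915% in PN (0.898 to 0.933) and 0.912% in PD (0.891 to 0.934). miR319 had 1.09 reads per read of miR159 in PN and 1.18 in PD. The ratio of these ratios was 0.927 (95% interval 0.889 to 0.966). If the reads are independent, miR319 was thus lower relative to miR159 in PN by more than the counting error. Taken alone, the share of miR319 in PN was 0.930 times that in PD (0.904 to 0.956), and that of miR159 was 1.003 times (0.973 to 1.03). The direction of the miR319 sum rested on single names, since the ratio was 1.18 without ath-miR319c and 0.727 without mtr-miR319a-3p. It also depended on miR166, which made up 80.6% of all counted reads in PN and 79.3% in PD. As a share of the reads other than miR166, the ratio was 0.992 for miR319 and 1.07 for miR159. All intervals are exact for independent reads and cover counting error only. Reads without molecular identifiers are not independent molecules, and whether a read was counted under several names was not tested. Either would make the intervals too narrow. They do not cover variation between ovules or library preparations.

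**Figure D1:**
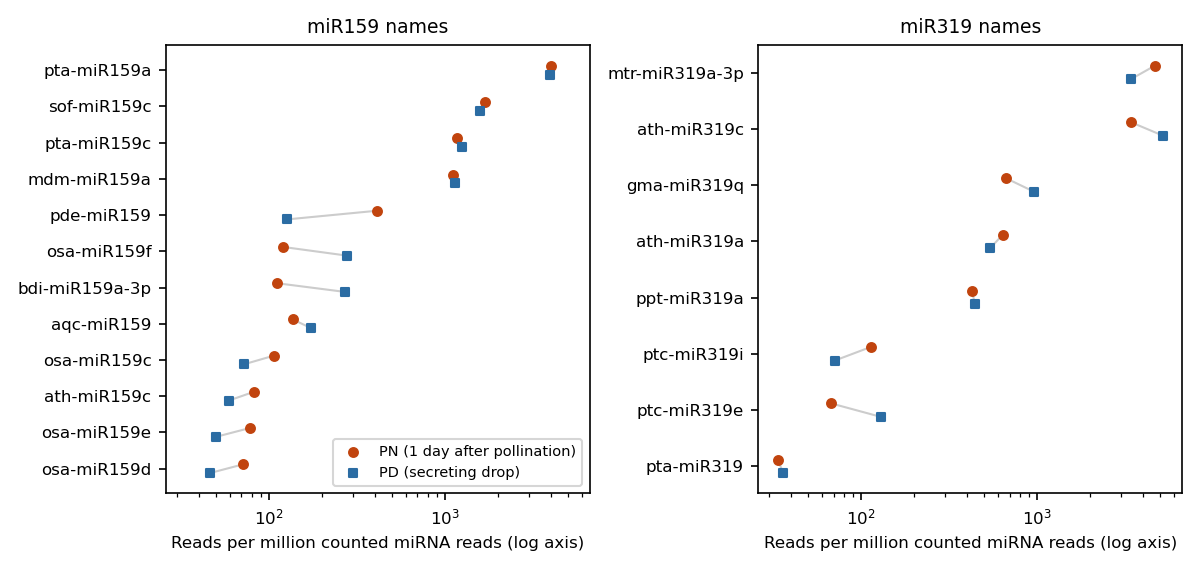
Abundance in TPM (reads scaled to the total of counted miRNA reads, log axis) in the PN library (circles) and the PD library (squares) for the 12 miR159 and 8 miR319 names that reached 50 reads in the 2 libraries together. The 4 most abundant miR159 names have near-equal values in PN and PD, whereas the 2 most abundant miR319 names change places.

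The reads of miR159 rested on a few names that differed little between the stages. pta-miR159a, the name of a pine miRNA, had 4543 reads in PN and 3089 reads in PD, or 44.0% of the family's reads in PN and 43.7% in PD. sof-miR159c followed with 1907 reads in PN and 1227 reads in PD. pta-miR159c had 1324 reads in PN and 972 reads in PD, and mdm-miR159a had 1267 and 892 reads. The ratios of their shares, PN over PD, lay between 0.934 and 1.07, and each interval included 1. Together with aqc-miR159 (155 reads in PN and 135 reads in PD, ratio 0.787), whose interval lay just below 1 (0.621 to 0.9992), these names held 89.0% of the miR159 reads in PN and 89.4% in PD. They were put together after their counts were seen.

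Among the rarer miR159 names, pde-miR159, from another pine, had 465 reads in PN and 98 reads in PD. It made up 4.50% of the family's reads in PN (95% interval 4.11 to 4.92) and 1.39% in PD (1.13 to 1.69), and its share of all counted reads was 3.25-fold higher in PN. osa-miR159f had 137 reads in PN and 217 reads in PD, and bdi-miR159a-3p had 126 reads in PN and 210 reads in PD. These 2 names of grass miRNAs had similar counts and similar ratios of 0.433 and 0.411. osa-miR159c, osa-miR159d and osa-miR159e differed the other way, with 121, 81 and 88 reads in PN against 56, 36 and 39 reads in PD. Their ratios lay between 1.48 and 1.55, with intervals above 1. ath-miR159c had 93 reads in PN and 46 reads in PD, a ratio of 1.39 whose interval (0.964 to 2.02) included 1. Names with near-equal counts could hold the same reads, which was not tested because the table gives no sequences.

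In miR319 the most abundant names themselves went in opposite directions. mtr-miR319a-3p had 5258 reads in PN and 2635 reads in PD. ath-miR319c had 3847 reads in PN and 4014 reads in PD, although the PN library held more reads in all. mtr-miR319a-3p thus made up 46.5% of the family in PN (95% interval 45.6 to 47.4) and 31.6% in PD (30.6 to 32.6), while ath-miR319c made up 34.0% in PN (33.1 to 34.9) and 48.1% in PD (47.03 to 49.2). mtr-miR319a-3p led the family in PN and ath-miR319c led it in PD. The reads of mtr-miR319a-3p per read of ath-miR319c were 1.37 in PN and 0.656 in PD, a ratio of ratios of 2.08 (95% interval 1.95 to 2.22). In miR159 the same value for its 2 most abundant names, sof-miR159c per pta-miR159a, was 1.06 (0.970 to 1.15).

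The other miR319 names were also divided. ath-miR319a (723 reads in PN and 420 reads in PD, ratio 1.18) and ptc-miR319i (128 and 55 reads, ratio 1.60) had intervals above 1. gma-miR319q (755 reads in PN and 747 reads in PD, ratio 0.693) and ptc-miR319e (76 and 100 reads, ratio 0.521) had intervals below 1. ppt-miR319a, at 482 reads in PN and 344 reads in PD, had a ratio of 0.961, and pta-miR319, at 38 and 28 reads, one of 0.931. The intervals of these last 2 names included 1. The names ptc-miR319i and ptc-miR319e, both of poplar, and ath-miR319a and ath-miR319c, both of Arabidopsis, therefore differed in direction within one species prefix.

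**Figure D2:**
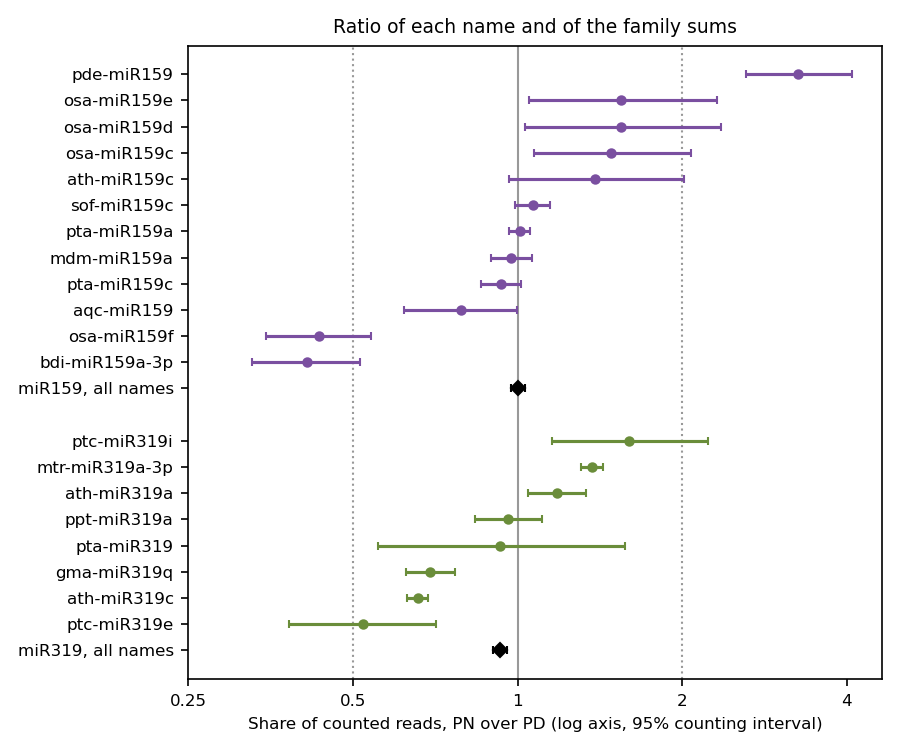
Share of counted reads in PN over that in PD (log axis) for each name with at least 50 reads (circles) and for the sum of each family (diamonds), with 95% counting intervals; dotted lines mark 2-fold. The miR159 names run from 0.411 to 3.25 around a family ratio of 1.003, and the miR319 names from 0.521 to 1.60 around 0.930.

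A name was called higher or lower when its share differed at least 2-fold and its interval excluded 1. Of the 20 names with at least 50 reads, 1 was called higher in PN (pde-miR159) and 2 were called lower (osa-miR159f and bdi-miR159a-3p). Over all 127 names with at least 50 reads, 8.66% were called higher and 7.09% lower, so these counts are near the background. Without the 2-fold limit, 7 of the 20 names had an interval above 1, 6 had one below 1 and 7 included 1. Over all 127 names these shares were 43.3% above, 29.9% below and 26.8% including 1, so such intervals were no more common here. ptc-miR319e, at 0.521, was the miR319 name nearest to the limit, and no miR319 name passed it.

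The spread among names of one family was set beside the other families with at least 5 such names. The highest ratio was 7.91 times the lowest in miR159 and 3.06 times in miR319. It was 7.21 in miR166, 6.04 in miR390 and 2.55 in miR396, families whose names also differed. In miR171 it was 1.45, and in miR167, miR160 and miR408 all names had nearly the same ratio (1.07, 1.03 and 1.01). By this measure miR159 had rank 1 and miR319 rank 4 of these 9 families. Families have different numbers of names and reads, and the values are given as a description without a test.

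The remaining 8 names had few reads. ath-miR159b-3p, lus-miR159b and osa-miR159a.1 each had exactly 4 reads in PN and 11 reads in PD, and ath-miR159a had 5 and 11 reads. zma-miR159e-3p had 7 reads in PN and 5 reads in PD. pta-miR159b had 5 reads in PN and none in PD, where a count of 0 allows up to 3.87 TPM. Its 5 reads in PN were 4.43 TPM. gma-miR319c and gma-miR319f had 1 read in PN and none in PD. Differences of pta-miR159b and of these soybean names were not detectable at this depth.

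These rare names carried a large part of the listed targets. The 45 genes formed 50 pairs with 21 names. Of the pairs, 20 belonged to 6 names with under 50 reads, whose reads summed to 22 in PN and 27 in PD. In all, 19 of the 45 genes (42.2%) were listed only for such names. gma-miR319f, with its single read, had 5 of the genes, as many as pde-miR159, and pta-miR159b, osa-miR159a.1 and zma-miR159e-3p had 4 each. The most abundant name of miR319, mtr-miR319a-3p, had no listed target, nor had sof-miR159c, osa-miR159f or ath-miR319a. pta-miR159a, the most abundant miR159 name, had 1. The table gives no read numbers or scores for the pairs, so the evidence behind a pair cannot be weighed.

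Most of the genes were expressed in the ovule at levels above the middle of all genes. Of the 45 genes, 43 were above 0 FPKM in both libraries and 2 (Gb_24611, listed for bdi-miR159a-3p, and Gb_41692, listed for gma-miR319q) were listed at 0 in both. A further 3 had a mean of under 1 FPKM over both libraries and were not compared. Gb_17982 was at 0.0516 FPKM in PN and 0.122 FPKM in PD, and Gb_17485 at 0.701 and 0.827 FPKM. The third, Gb_32417, was the only gene listed for 2 miR319 names (ppt-miR319a and pta-miR319), at 1.33 FPKM in PN and 0.555 FPKM in PD. That left 40 genes, 88.9% of the 45, against 49.0% of all genes in the table and 88.2% of the 850 genes listed for other miRNAs only. The median level of the 40 genes was 33.8 FPKM in PN and 30.3 FPKM in PD, against 12.6 FPKM in PN and 11.98 FPKM in PD over all 21308 compared genes. Targets of other miRNAs had medians of 43.1 FPKM in PN and 38.4 FPKM in PD, so a level above the middle was common to listed targets.

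**Figure D3:**
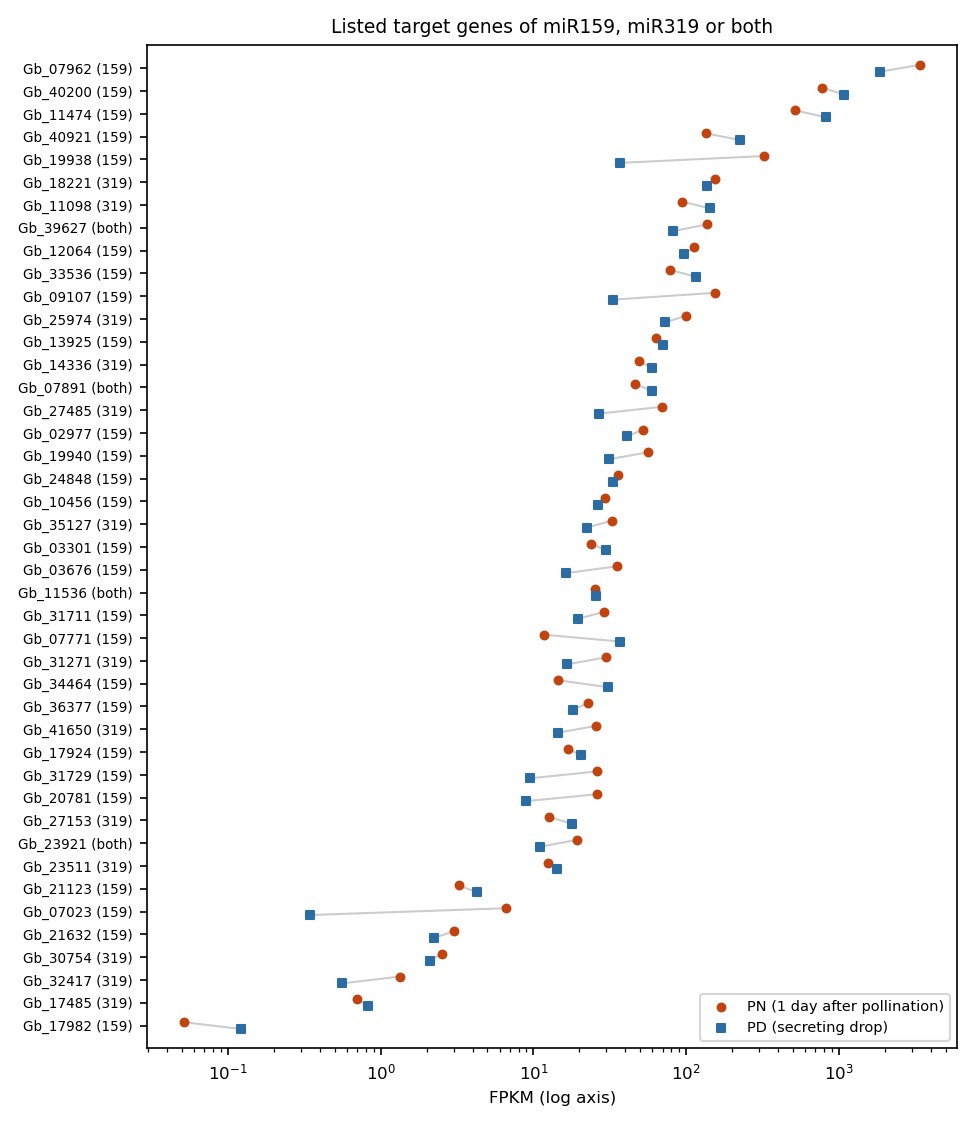
FPKM (log axis) of the 43 target genes above 0 in the PN library (circles) and the PD library (squares), ordered by mean; the family a gene is listed for stands in brackets. Levels run from under 0.1 to 3406 FPKM in PN, and for most genes both libraries lie close together.

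Levels differed far more between genes than between stages. Gb_07962, listed for pta-miR159b, was the most abundant, at 3406 FPKM in PN and 1855 FPKM in PD. It was followed by Gb_40200 (bdi-miR159a-3p) at 779 FPKM in PN and 1080.0 FPKM in PD, and by Gb_11474 (osa-miR159e) at 519 and 823 FPKM. These abundant miR159 targets did not move together, since the first was higher in PN and the other 2 lower, all within 2-fold. Gb_40921 (zma-miR159e-3p) stood at 134 FPKM in PN and 225 FPKM in PD. Among the genes listed for miR319 alone, the highest by mean were Gb_18221 (gma-miR319f) at 155 FPKM in PN and 137 FPKM in PD and Gb_11098 (gma-miR319c) at 94.3 FPKM in PN and 144 FPKM in PD. Gb_25974 (ppt-miR319a) had 99.8 FPKM in PN and 73.1 FPKM in PD, and Gb_14336 (ptc-miR319e) had 49.1 and 59.8 FPKM. Gb_39627, listed for both families, stood between Gb_11098 and Gb_25974 by mean. The miR319 list thus held no gene at the level of the 3 highest miR159 targets.

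Differences between the stages were taken as log2(FPKM + 1) in PN minus that in PD, a scale that understates the change of low genes, and a gene was called at a difference of at least 1, a 2-fold change. Of the 40 compared genes, 7 (17.5%) were called higher in PN, 2 (5%) were called lower and 31 lay within 2-fold. Over all compared genes, 9.27% were called higher and 6.86% lower. With a pseudocount of 5 in place of 1, 1 of the 40 genes was called lower. In the miR159 list, with the genes of both families included, 6 of 29 genes were higher and 2 lower, and in the miR319 list 1 of 15 was higher and 0 lower. The difference between the families was not tested. The median difference was 0.22 for miR159 targets and 0.18 for miR319 targets, against 0.11 over all compared genes and 0.06 over the targets of other miRNAs only. Median-of-ratios scaling sets the median FPKM ratio, PN over PD, of the compared genes above 0 in both libraries to 1. It lowers PN by 0.12 on the log2 scale. The median was then 0.093 for each list and close to 0 over all genes. On that scaling 6 of the 40 compared genes were called higher and 2 lower. Of all 21308 compared genes, 1539 were then called higher and 1792 lower, so the lean of the background toward higher turned.

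On this scale the largest difference was that of Gb_19938, listed for pta-miR159b, with 322 FPKM in PN and 36.8 FPKM in PD. This is 3.09 on the log2 scale, or 8.53-fold higher in PN on the FPKM + 1 scale. Among compared genes its level was at percentile 97.7 in PN and percentile 77.6 in PD. The deposited values move in steps of whole fragments, from which a smallest number of fragments per gene can be read. For Gb_19938 these were at least 3409 fragments in PN and 331 fragments in PD, and the counting interval of the FPKM ratio was at most 7.80 to 9.80. Counting error is therefore small beside the difference, whereas variation between ovules was not measured in these libraries.

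Gb_07023, listed for the same name, had 6.65 FPKM in PN and 0.345 FPKM in PD, a log2 difference of 2.51. That value was 3.92 with a pseudocount of 0.1, then above the 3.12 of Gb_19938, and 1.12 with a pseudocount of 5. Gb_07023 rested on at least 91 fragments in PN and 4 fragments in PD, so the interval of its FPKM ratio, 19.3, ran from 7.28 to 72.3. This gene passed the filter on low values through its level in PN alone. The other 2 genes of pta-miR159b, Gb_07962 and Gb_19940 (56.4 FPKM in PN and 31.1 FPKM in PD), were higher in PN by 0.88 and 0.84 on the log2 scale, just inside the limit of 1. All 4 genes of pta-miR159b were thus higher in PN, 2 of them within 2-fold, while the name itself had 5 reads in PN and 0 reads in PD. Of all 21308 compared genes, 12116 were higher in PN by any amount and 9192 lower.

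Gb_09107, listed for pde-miR159, had 155 FPKM in PN and 33.3 FPKM in PD, a log2 difference of 2.18. pde-miR159 was the name called higher in PN, and the gene was higher too. Its other genes with compared values were Gb_10456 at 29.5 FPKM in PN and 26.5 FPKM in PD, Gb_31711 at 28.8 and 19.7 FPKM, and Gb_23921, described with the genes of both families. None of the 4 compared genes of pde-miR159 was lower in PN, and their median was 0.64. Of all 21308 compared genes, 9192 were lower in PN by any amount, and the median was 0.11. The names called lower had few genes to set beside those of pde-miR159. osa-miR159f had no listed target, and the 2 compared genes of bdi-miR159a-3p were Gb_40200 at -0.47 and Gb_21632 at 0.32 on the log2 scale (3.04 FPKM in PN and 2.24 FPKM in PD).

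Targets of abundant miR159 names of near-equal share were also among those called higher. Gb_20781, the listed target of pta-miR159a, had 26.1 FPKM in PN and 8.99 FPKM in PD (log2 difference 1.44, FPKM ratio 2.91 with an interval of 2.49 to 3.40). Gb_31729, the listed target of mdm-miR159a, had 26.0 FPKM in PN and 9.51 FPKM in PD (1.36, FPKM ratio 2.73, 2.33 to 3.21). Their miRNA names had ratios of 1.01 and 0.974. The listed target of pta-miR159c, Gb_02977, was within 2-fold at 52.4 FPKM in PN and 41.1 FPKM in PD.

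**Figure D4:**
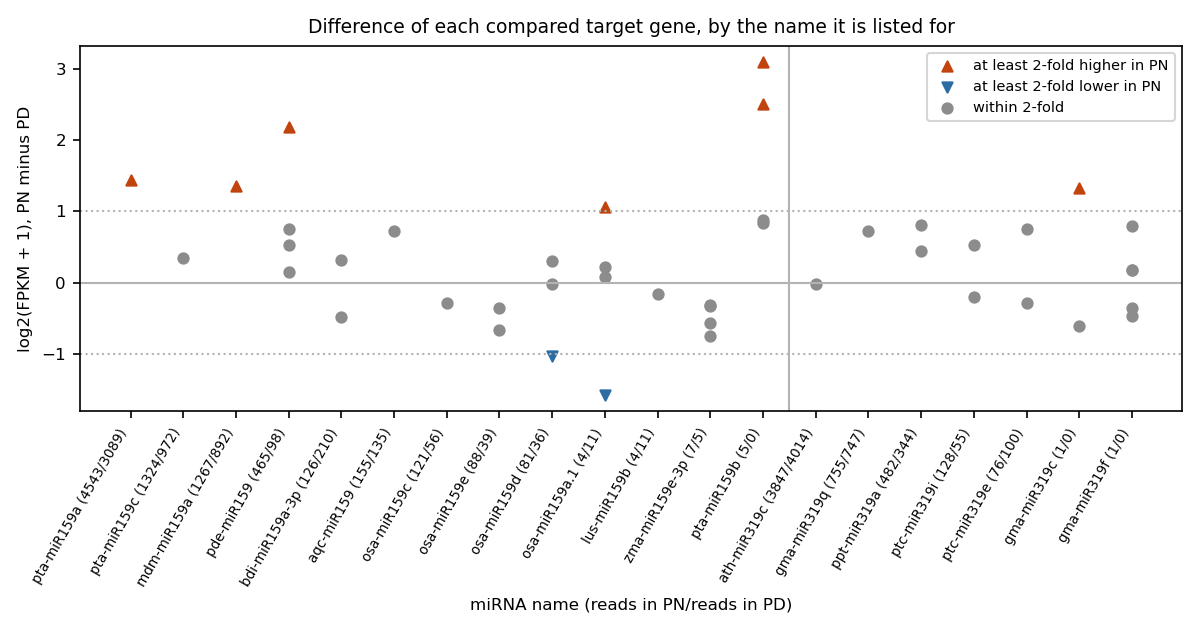
Difference of log2(FPKM + 1), PN minus PD, of each compared target gene above the miRNA name it is listed for, with miR159 names on the left and miR319 names on the right, each ordered by reads; a gene listed for 2 names appears at both. Of the 7 genes called higher (upward triangles), 4 stand above names with under 50 reads, and both genes called lower (downward triangles) stand above rice miR159 names.

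The genes of osa-miR159a.1 went in both directions. Gb_07771 had 11.7 FPKM in PN and 36.7 FPKM in PD, the lowest difference among the compared genes at -1.57. Gb_03676 had 35.1 FPKM in PN and 16.3 FPKM in PD, a difference of 1.06. Gb_12064 (113 FPKM in PN and 97.4 FPKM in PD) and Gb_24848 (35.6 and 33.4 FPKM) lay close to equal. The same miRNA name, with 4 reads in PN and 11 reads in PD, was therefore listed beside a gene called higher and a gene called lower. The second gene called lower was Gb_34464, listed for osa-miR159d, at 14.5 FPKM in PN and 30.5 FPKM in PD (-1.02). Gb_34464 and Gb_03676 were the genes nearest to the limit among those past it. With median-of-ratios scaling, Gb_03676 was at 0.94 and inside it. The 4 genes of zma-miR159e-3p, by contrast, were all lower in PN within 2-fold. They ran from -0.30 for Gb_21123 (3.26 FPKM in PN and 4.26 FPKM in PD) to -0.74 for Gb_40921, with Gb_03301 at 23.7 FPKM in PN and 30.04 FPKM in PD and Gb_33536 at 78.8 and 116 FPKM between them. Of all 21308 compared genes, 9192 were lower in PN by any amount.

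Among the miR319 targets, Gb_27485, listed for gma-miR319c, was called higher, with 69.6 FPKM in PN and 27.0 FPKM in PD (log2 difference 1.33, FPKM ratio 2.58 with an interval of 2.39 to 2.78). The other gene of that name, Gb_11098, had the lowest difference of the miR319 list at -0.60. Gb_31271 (ppt-miR319a, 29.7 FPKM in PN and 16.5 FPKM in PD) and Gb_41650 (gma-miR319f, 25.8 and 14.4 FPKM) were higher by 0.81 and 0.80, inside the limit. ath-miR319c, the leading name in PD, had 1 compared gene, Gb_11536, at 25.3 FPKM in PN and 25.6 FPKM in PD. The opposite changes of the leading miR319 names were thus set against a single compared target with equal levels in both libraries, since mtr-miR319a-3p had none.

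The 4 genes listed for both families lay within 2-fold, and 2 of them were higher and 2 lower in PN. Gb_23921, listed for pde-miR159 and ptc-miR319e, had 19.3 FPKM in PN and 11.1 FPKM in PD, a difference of 0.75. Gb_39627, listed for aqc-miR159 and gma-miR319q, had 136 FPKM in PN and 81.8 FPKM in PD, a difference of 0.73. The names listed for Gb_39627 both had intervals below 1, whereas those listed for Gb_23921 differed in direction. Gb_07891, listed for osa-miR159e and gma-miR319f, had 46.5 FPKM in PN and 59.5 FPKM in PD (-0.35). Gb_11536, listed for osa-miR159d and ath-miR319c, was near equal at -0.02. Names of miR159 and miR319 that share a target here were from different species prefixes in all 4 cases.

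The genes were also grouped by the direction of their names, to be read beside the 9.27% called higher, the 6.86% called lower and the median of 0.11 over all compared genes. The 12 compared genes listed for a name with an interval above 1 had a median difference of 0.07, or -0.053 with median-of-ratios scaling. Of these genes, 1 was called higher and 1 lower. The 6 compared genes listed for a name with an interval below 1 had a median of 0.15, or 0.045 with that scaling. None of them was called. On that scaling the median over all compared genes was -0.00055. Gb_23921 and Gb_11536 are in both groups. The 19 genes listed only for names under 50 reads had a median of 0.18 (0.054 when scaled), with 4 called higher and 1 lower. The 21 compared genes with a more abundant name had a median of 0.32 (0.22 when scaled), with 3 called higher and 1 lower.

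**Figure D5:**
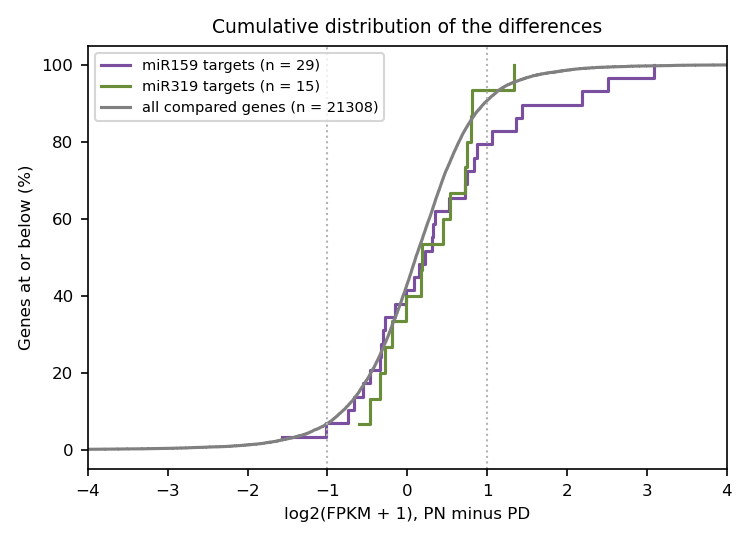
Cumulative share of genes (y axis, %) at or below a difference of log2(FPKM + 1), PN minus PD (x axis), for the 29 compared miR159 targets, the 15 compared miR319 targets (4 genes are in both) and all 21308 compared genes. The curves lie close together at 0, and the miR159 curve lies to the right of all genes above 1, where 6 of its genes stand.

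Counting error was small for most genes. Of the 40 compared genes, 22 had a counting interval of the FPKM ratio above 1, 14 had one below 1 and 4 included 1. Over the 21236 compared genes above 0 in both libraries, 36.5% lay above 1, 25.8% lay below 1 and 37.7% included 1. The target genes also had higher levels than the middle of all genes, and more fragments narrow an interval. These intervals use the smallest fragment numbers that fit, so they are at their widest, and they cover no variation between ovules. In whole ovules, a change in the number of cells of one type and a change of RNA per cell cannot be told apart. Whether RNA of pollen on the PN ovules contributed to any value was not tested, since pollen genes could not be named. The 7 genes shared with other miRNAs, kept apart above, all lay within 2-fold, from -0.50 for Gb_34642 (56.4 FPKM in PN and 79.9 FPKM in PD; also listed for miR168) to 0.69 for Gb_07392 (276 FPKM in PN and 171 FPKM in PD; also listed for miR476).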

How the data were processed

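Gene expression was deposited by the authors as FPKM per gene, and miRNAs as read counts per name with TPM values, per the file headers. The deposited TPM equals the count scaled to the total reads of the table, to within 4.95e-05. Per the submitters' processing notes, the tools included Bowtie, TopHat, TopHat2 2.0.12 and Cufflinks 2.1.1. How reads were assigned to names, and the genome build, is not given in the sources used. The FPKM table has 2 columns headed PD2 and none headed PN2; these 2 were not used. The target list deposited by the authors pairs names with gene IDs; 8 repeated rows were dropped. Members and lists were chosen with earlier results of these data known.

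Read shares were compared by ratios with exact conditional binomial (Clopper-Pearson) 95% intervals, in Python 3.11.15 with SciPy 1.17.1. The ratios of ratios were conditional odds ratios with exact 95% intervals for such odds ratios, from the same software. Genes with a mean of at least 1 FPKM were compared with a pseudocount of 1. limma was not used, because 1 column per stage was matched by name. The ratio of FPKM between the libraries was a constant (0.848) times a ratio of whole numbers. In all 2379 genes under 0.5 FPKM in both libraries these numbers were at most 60, within a relative tolerance of at most 1.59e-07 set by the deposited digits (ratios of such numbers lie at least 0.000287 apart, relative to their size), which gave a relative depth of 1.18 (PN over PD). The smallest numbers within the tolerance served as fragment minimums; 35 of the 40 compared targets were resolved to 1 ratio, and in all of them the minimums are lower bounds. Over the 96.4% of genes resolved they sum to at least 8658453 fragments in PN and 6889785 fragments in PD. This recovery was chosen after seeing the data. The steps were tested on simulated data drawn with counting error alone. In that test the fragment step was not checked on genes with large fragment numbers, such as those of Gb_19938. The rule for named miRNAs was at least 50 reads; the 8 rarer names are also named, a choice made after their values were seen. Named genes were those past 2-fold, the 5 most abundant per family, those of both families, those with most names and those nearest to the limit; the other genes are named to complete a miRNA's targets.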

Additional observations from a re-analysis of the deposited data

How the results depend on the processing

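The family sums depended on which names were counted. The miR319 ratio of 0.930 became 1.37 when its most abundant name stood for the family, 0.727 without mtr-miR319a-3p, 1.18 without ath-miR319c and 0.992 as a share of reads other than miR166. The miR159 ratio of 1.003 became 1.07 on that last share and 1.04 as the median of its names, and stayed within its interval under the other alternatives run. With at least 10 reads or with no read minimum, 6 names were called lower in place of 2, by construction from names of few reads. Among those added were ath-miR159b-3p, lus-miR159b and osa-miR159a.1, whose identical counts could hold the same reads. With a pseudocount of 5, 1 target gene was called lower. The median of miR159 targets was 0.093 with median-of-ratios scaling, and that of miR319 targets was 0.31 with a mean of at least 5 FPKM. The other counts of called genes stayed within 1.5 times, from 6 to 7 higher. Of 35 values recomputed for the 9 called genes, 32 stayed past 2-fold and 3 fell inside it. Of these 3, 2 were for Gb_03676 (0.91 with a pseudocount of 5 and 0.94 with median-of-ratios scaling). The other was for Gb_34464 (-0.86 with a pseudocount of 5). Part of the 32 could not have fallen inside. The filter on the mean leaves a value unchanged, and a pseudocount of 0.1 only widens a difference. Median-of-ratios scaling lowers PN, which only widens the difference of the genes called lower. Gb_07023 moved most, from 1.12 to 3.92 with the pseudocount, and was not compared at a mean of at least 5 FPKM. Leaving out single names and requiring a counting interval that excludes 1 were added once the data had been seen. No paired analysis was possible because 1 RNA-seq column per stage could be matched by name, and leaving out replicates and limma were not run for the same reason. Depth limits the names with under 50 reads.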
